A study of Rattus norvegicus with 6 samples.

Results

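The RT1 complex holds the rat's histocompatibility genes, and those described here make up its class II antigen presentation pathway. They are RT1-Ba, RT1-Bb, RT1-Da, RT1-Db1, RT1-DMa, RT1-DMb, RT1-DOb, Cd74 and Ciita, which are 9 of the 15645 gene symbols that could be given to probes of the array. Members were found by the RefSeq accession that the scanner files give for each probe, and every probe with such an accession was kept, 19 in all. Gene expression was measured with single-colour Agilent arrays in kidney cortex from 6 male rats of the outbred Sprague-Dawley stock, which were 5 weeks old when bought. Dosing lasted 4 weeks: 3 rats were given 1,2-dibromoethane at 75 mg/kg/day, and the 3 controls were given corn oil. Each rat gave 1 array, so the 3 arrays of a group are separate animals, and their number limits the precision of every difference. 1,2-Dibromoethane is a halogenated solvent and former soil fumigant, and the cortex was taken as whole tissue, with no sorting of cells.

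Class II molecules carry peptides from endocytosed proteins to the cell surface, where CD4+ T cells read them. The alpha and beta chains assemble in the endoplasmic reticulum around the invariant chain Cd74, which blocks the peptide groove and leads the complex to endosomes. There the DM molecule exchanges the remnant of the invariant chain for peptide, and the DO molecule holds DM back. Ciita, the class II transactivator, does not bind DNA by itself but joins factors on the X and Y boxes of class II promoters. In kidney, macrophages and dendritic cells between the tubules are the main cells with class II, and tubular epithelium can take it up under inflammation. In a bulk sample, fewer cells of a type and less RNA per cell cannot be told apart.

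Promoters are shown first, because RT1-DOb and RT1-Db1 are the members on which the results below turn. RT1-Da is shown too, because like them it holds exact matches to the cores of both boxes. The RefSeq table of build GRCr8 holds promoters (a stretch around each gene's start) for 7 of the 9 members. The X box core was searched as AGNAAC, then any 2 bases, then ATG, and the Y box core as ATTGG, on both strands and with no overlap between the motifs. An X core stood in 3 of the 7 promoters, those of RT1-Da, RT1-Db1 and RT1-DOb, and in 0.98% of 33469 promoters of the same length. A Y core stood in 7 of 7, and in 37.5% of all promoters. An X core followed by a Y core on the same strand within 40 bases was found in those 3 members and in 0.0448% of all promoters. The gap between the boxes was 23 bases in RT1-Da, 22 in RT1-Db1 and 20 in RT1-DOb. A match is a description of the letters only, and only exact matches were counted. In RT1-Bb, a stretch that differs from the X core by a letter stands upstream of a Y core on the same strand. The other 4 promoters are thus not shown to lack an X box. The 3 stretches follow, 5′ to 3′ along the gene, with the X and Y cores of either strand in capitals; they lie at chr20:4515292-4515402 on the plus strand and at chr20:4560205-4560315 and chr20:4627567-4627677 on the minus strand.
RT1-Da: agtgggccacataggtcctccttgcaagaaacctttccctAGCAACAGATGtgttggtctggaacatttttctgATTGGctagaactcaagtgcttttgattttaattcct
RT1-Db1: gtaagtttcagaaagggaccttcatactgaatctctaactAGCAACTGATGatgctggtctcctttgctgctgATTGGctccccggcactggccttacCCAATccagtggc
RT1-DOb: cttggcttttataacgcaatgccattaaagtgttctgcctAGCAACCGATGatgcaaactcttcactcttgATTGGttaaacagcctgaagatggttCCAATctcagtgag

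Levels are log2 processed signals from which the 75th percentile of their array was subtracted, so 0 is the level of the probe at that percentile, and 1 unit is a 2-fold step. Between 59.2% and 67.8% of the 61453 probes of an array were well above background, and no spot was saturated. Of the 19 class II probes 17 were well above background on all 6 arrays and were tested, which covers 8 of the 9 genes. The other 2 were well above background on no array. These were A_44_P128248, the sole probe of RT1-Ba, at -7.79, -6.64 and -7.51 in dibromoethane rats and -7.05, -6.97 and -7.58 in controls, and A_44_P552452 of RT1-Bb, between -7.58 and -6.71 on all arrays. The dimmest probes well above background stood between -5.65 and -4.65 on the 6 arrays. RT1-Ba was therefore not measured, although 2 probes of its partner chain RT1-Bb were bright.

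With each probe tested by itself in limma, 0 of the 17 class II probes passed an adjusted p of 0.05, where 10 of 37274 probes (0.0268%) did. At an unadjusted p under 0.05 there were 3 class II probes (17.6%), against 11.3% of all probes. Of these 3, 2 were higher in dibromoethane rats, the direction of 4.68% of all probes, and 1 was lower, the direction of 6.59%. The same 3 were the ones whose groups did not overlap, a property of 19.4% of all probes (7.59% with dibromoethane higher, 11.8% with it lower). The shares among so few probes, several of them on the same transcript, are near those of the whole array. The median log2 difference of the 17 was 0.11, against -0.01 over all probes tested, and it was -0.01 without dibromoethane replicate 2, 0.27 without dibromoethane replicate 3, 0.03 without control replicate 1 and 0.20 without control replicate 3.

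**Figure D1:**
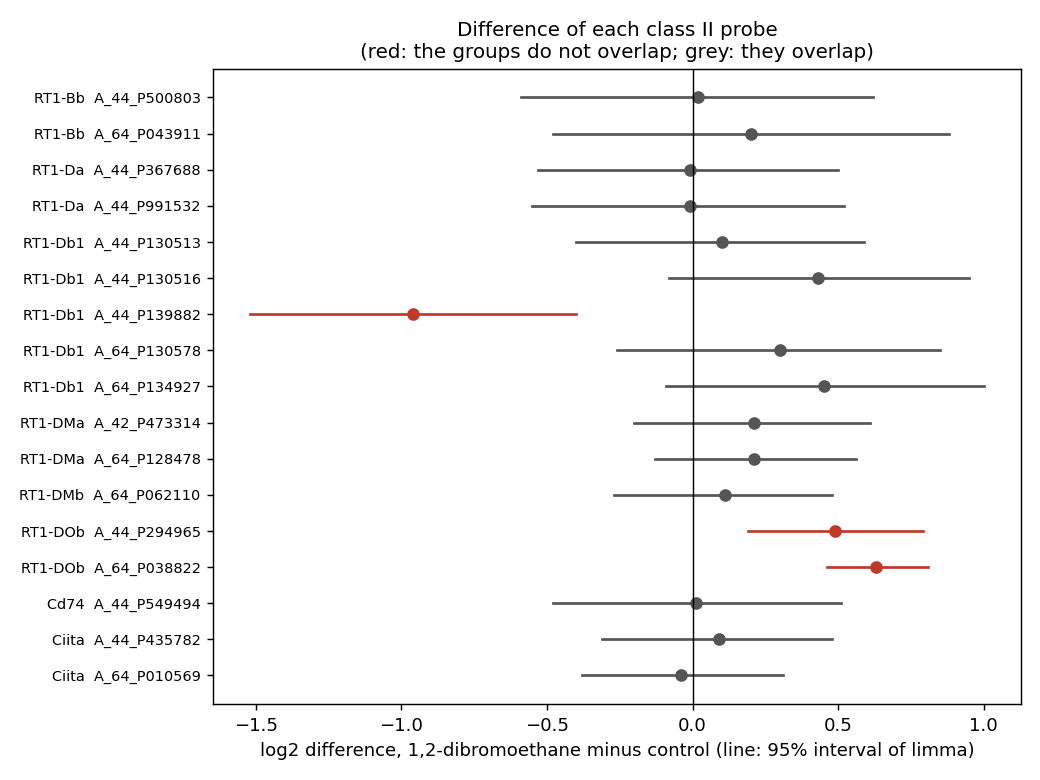
Log2 difference (horizontal axis, 1,2-dibromoethane minus control) of the 17 class II probes above background, with the 95% interval of limma as a line; red marks probes whose groups do not overlap. The RT1-DOb probes lie at 0.49 and 0.63 and the RT1-Db1 probe A_44_P139882 at -0.96, while the intervals of the other 14 include 0.

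The DO beta chain gave the smallest p among the members. RT1-DOb probe A_64_P038822 stood at -1.20, -1.23 and -1.11 in dibromoethane rats and at -1.85, -1.78 and -1.80 in controls. Every treated array was above every control array, and the distance between the groups was many times the spread within them. The means were -1.18 ± 0.06 in dibromoethane rats and -1.81 ± 0.04 in controls (SD, n = 3 each). This is a 1.55-fold difference (log2 difference 0.63, SE 0.07). Over all probes it did not pass, with a limma adjusted p of 0.12. The other RT1-DOb probe, A_44_P294965, had the same direction: it gave -2.42, -2.18 and -2.15 in dibromoethane rats and -2.91, -2.56 and -2.76 in controls. Its groups did not overlap either, although the gap was narrow (log2 difference 0.49, SE 0.12, limma adjusted p = 0.338). The arrays lay on 3 slides, and slides 1 and 2 held rats of both groups. On slide 1 alone A_64_P038822 differed by 0.59 and A_44_P294965 by 0.55, and on slide 2 alone they differed by 0.61 and 0.34. Under the 21 alternative settings the log2 difference of A_64_P038822 lay between 0.56 and 0.66, and its limma adjusted p between 0.0724 and 0.592. The 0.56 is from the setting that took the mean of both RT1-DOb probes.

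RT1-DOa, the alpha chain that pairs with RT1-DOb, is on the array with 1 probe that was not well above background on all arrays of either group, and it was not tested. DO is known from B cells, thymic epithelium and some dendritic cells, and B cell markers did not move together: of 6 tested, 3 had a positive and 3 a negative difference. Fcrla, a B cell protein of the Fc receptor family, was at -2.81, -2.96 and -2.73 in dibromoethane rats and -2.63, -2.22 and -2.42 in controls. Its treated arrays were all below its control arrays, as in 11.8% of all probes (log2 difference -0.41, SE 0.13, limma adjusted p = 0.362). The summed signal of the 10 B cell markers on the array, in multiples of the 75th percentile, was 2.00 to 2.97 in dibromoethane rats and 2.78 to 3.78 in controls, and Blk, Cr2 and Bank1 were well above background nowhere. Such a linear sum is led by its brightest members. The part of B cells in the RT1-DOb values was not tested.

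The D molecule beta chain, RT1-Db1, was read by 5 probes, which disagreed. Probe A_44_P139882 stood at -2.04, -1.45 and -2.18 in dibromoethane rats and at -1.24, -0.82 and -0.74 in controls. All treated arrays were below all control arrays (log2 difference -0.96, SE 0.23, limma adjusted p = 0.326). The other 4 probes pointed the other way or nowhere. A_64_P134927 gave 2.70, 3.07 and 2.29 in dibromoethane rats and 1.94, 2.40 and 2.36 in controls (log2 difference 0.45, SE 0.23, limma adjusted p = 0.499). A_44_P130516 gave 2.16, 2.65 and 1.88 in dibromoethane rats and 1.59, 1.93 and 1.87 in controls (0.43, SE 0.21, limma adjusted p = 0.494). In both, the lowest treated array reached into the control range. A_64_P130578 had a difference of 0.30 (SE 0.23) and A_44_P130513 one of 0.10 (SE 0.20).

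The disagreement was tested as a ratio, which removes whatever all probes of a gene share on an array. For every gene with several tested probes, the log2 value of a probe minus the mean of the gene's other probes was fitted in limma, over 10122 such ratios; this test was added after the values were seen. Of all ratios 2 (0.0198%) passed an adjusted p of 0.05, and A_44_P139882 of RT1-Db1 had the smallest p of all of them. Its ratio to the other 4 RT1-Db1 probes was -4.60, -4.46 and -4.42 in dibromoethane rats and -3.28, -3.24 and -3.11 in controls. The spread within groups was far below that of the probe's own levels, and the groups stood well apart. The ratio averaged -4.49 ± 0.09 in dibromoethane rats and -3.21 ± 0.09 in controls (SD, n = 3 each). It was lower by 1.28 on the log2 scale in dibromoethane rats (SE 0.08, limma adjusted p = 0.0272), or 0.411 of the control ratio. An exact two-sided permutation test of this ratio alone gave 0.1, the smallest p that 3 against 3 arrays allow. The difference was -1.20 within slide 1 and -1.49 within slide 2. It did not pass with slide as a fixed block (-1.32, limma adjusted p = 0.49), with scan day as a fixed block (-1.28, limma adjusted p = 0.102) or in any of the 6 fits that left out 1 array, where it was -1.32 to -1.23 with limma adjusted p of 0.0793 to 0.225. The absolute ratio of probes has no meaning in itself. In the reported fit the probes differed unequally between the groups, and the ratio does not tell which of them differed.

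**Figure D2:**
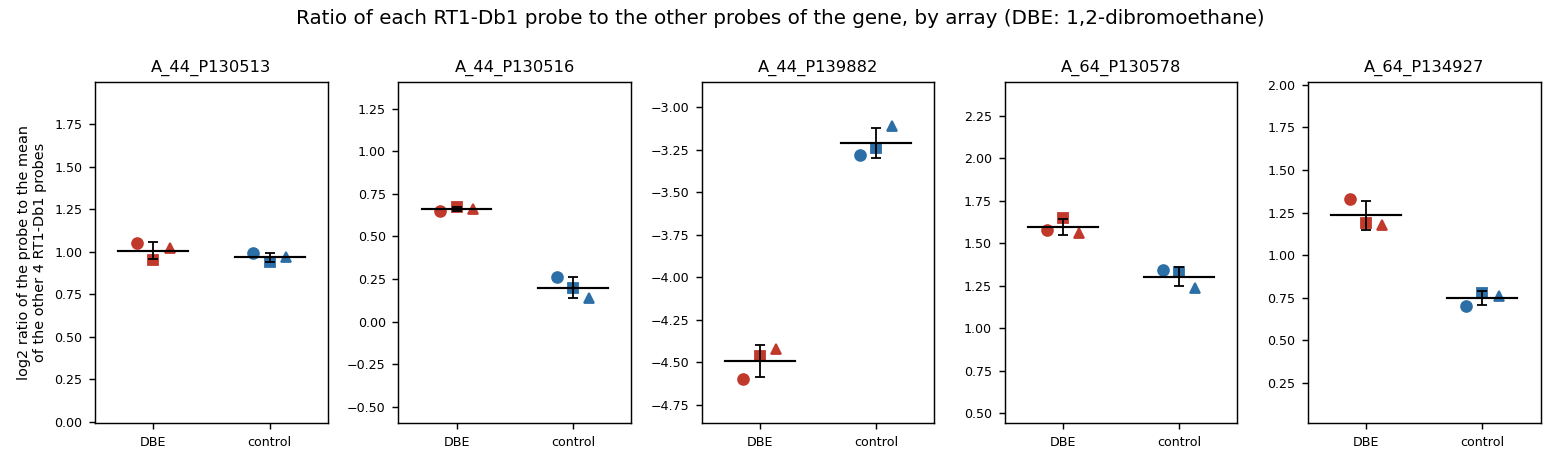
Log2 ratio (vertical axis) of each of the 5 RT1-Db1 probes to the mean of the other 4, by array, with 1,2-dibromoethane (red, DBE) left of control (blue); bars are means and whiskers SD, and every panel spans the same range. For A_44_P139882 the treated arrays lie at -4.60 to -4.42 and the controls at -3.28 to -3.11; A_44_P130513 overlaps between the groups.

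A_44_P139882, with its log2 difference of -0.96, enters the mean against which each remaining probe is set. This raises the ratio differences of the remaining probes, and their ratios without it were not computed. With that in mind, the groups also did not overlap for A_44_P130516 (0.66 ± 0.01 in dibromoethane rats and 0.20 ± 0.06 in controls), A_64_P134927 (1.23 ± 0.08 and 0.74 ± 0.04, dibromoethane rats before controls) and A_64_P130578 (1.60 ± 0.05 and 1.30 ± 0.06 in the same order, SD, n = 3 each). With the RT1-Bb ratio, 5 of the 10 class II ratios had groups that did not overlap, where 14.8% of all ratios did. Of the 5, 4 come from RT1-Db1 and share probes, so the count cannot be read as an excess over that share. The other class II genes with more than 1 tested probe had 1 ratio each, and Cd74, RT1-DMb and RT1-Ba had none. The RT1-Da probes kept their ratio to within 0.00 (SE 0.06), as did those of RT1-DMa (0.00, SE 0.06). The ratio of the RT1-Bb probes was -0.84, -0.84 and -0.77 in dibromoethane rats and -0.56, -0.61 and -0.74 in controls, lower without overlap (log2 difference -0.18, SE 0.07, limma adjusted p = 0.588). That of the RT1-DOb probes differed by -0.15 (SE 0.10) and that of the Ciita probes by 0.12 (SE 0.14). The other ratio that passed belongs to RT1-CE5, a class I gene of the same complex: its probe A_44_P172850 shifted by 1.11 against the gene's other probes (limma adjusted p = 0.0374).

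Class II beta chains are among the most polymorphic genes of the rat, RT1-Db1 has the close relative RT1-Db2 beside it, and Sprague-Dawley rats are outbred. The RefSeq sequences come from another strain, BN. Whether the probes match the alleles that these 6 rats carry, or bind transcripts of RT1-Db2 as well, was not tested, since no probe sequences were used. RT1-Db2 had a single probe, A_44_P210921, with 1.39, 1.75 and 1.07 in dibromoethane rats and 0.73, 1.05 and 1.19 in controls. These groups overlap (log2 difference 0.41, SE 0.21, limma adjusted p = 0.501).

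The alpha chain that pairs with RT1-Db1 showed no such split. RT1-Da probe A_44_P991532 gave 2.90, 3.33 and 2.59 in dibromoethane rats and 2.65, 3.13 and 3.07 in controls. The groups covered much the same range, with a log2 difference of -0.01 (SE 0.22) and a 95% interval of 0.68-fold to 1.44-fold. A_44_P367688 of the same gene gave 0.95, 1.35 and 0.72 in dibromoethane rats and 0.68, 1.16 and 1.22 in controls (log2 difference -0.01, SE 0.21). The B molecule beta chain, RT1-Bb, gave 3.44, 3.84 and 2.84 by probe A_64_P043911 in dibromoethane rats and 2.84, 3.25 and 3.44 in controls. Here too the groups overlapped (log2 difference 0.20, SE 0.28), as they did for A_44_P500803 (0.02, SE 0.25). The intervals, from 0.67-fold to 1.84-fold over the RT1-Bb probes, leave room for moderate differences in either direction.

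**Figure D3:**
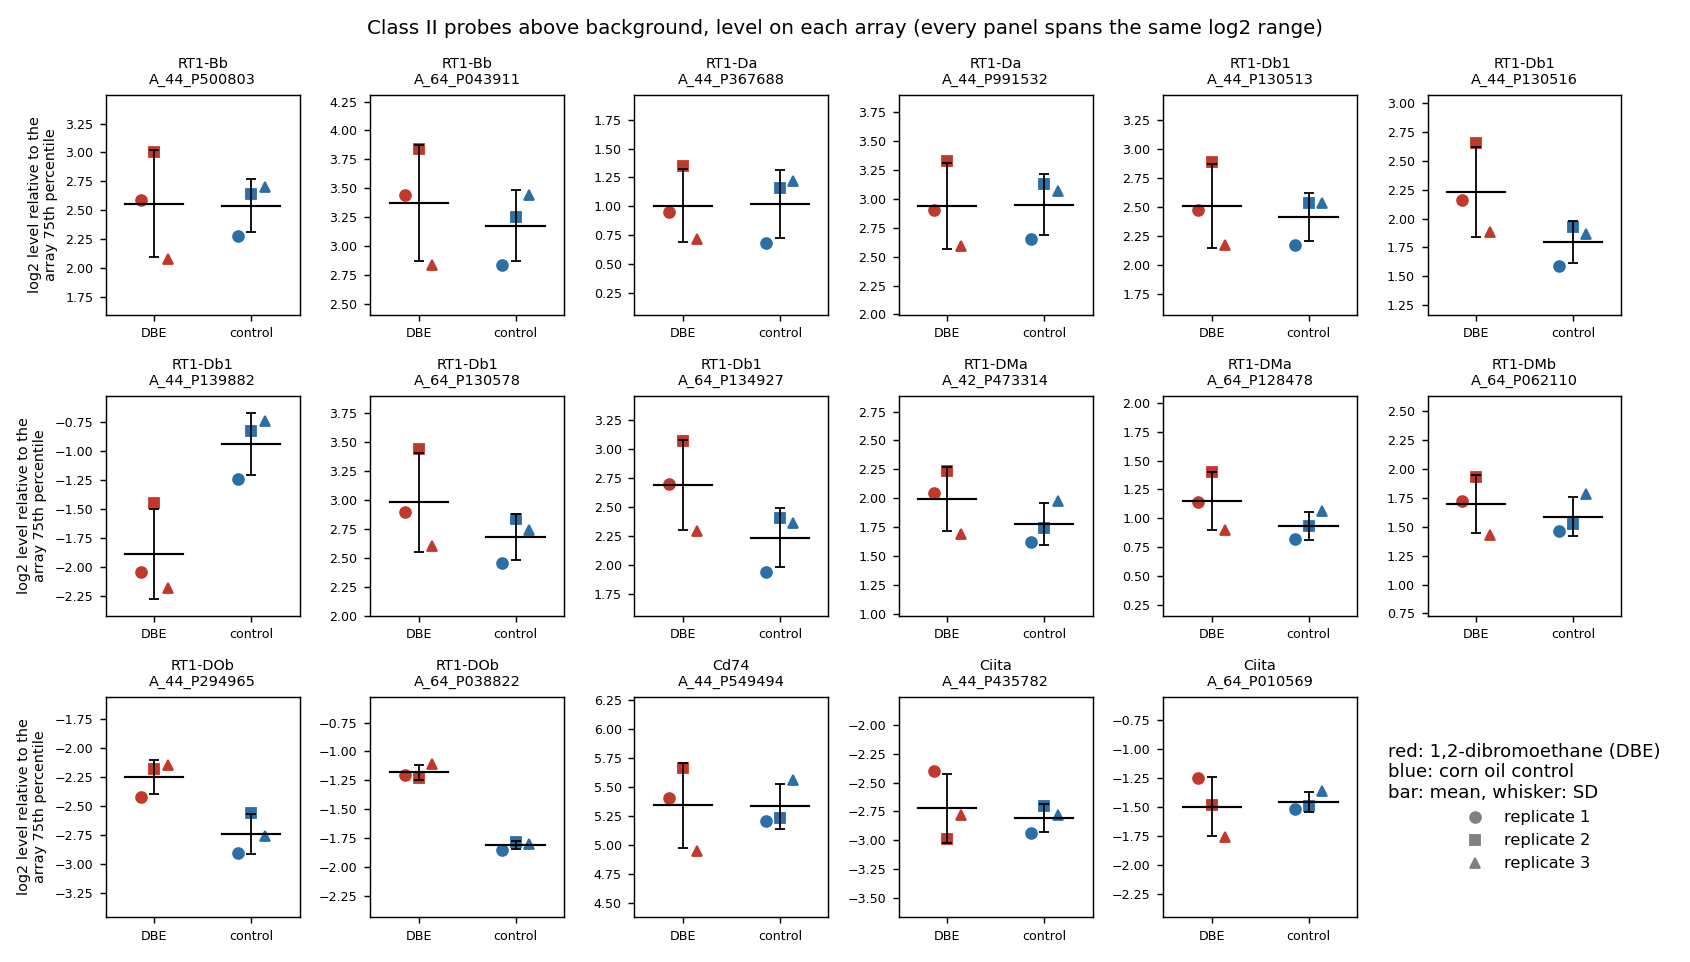
Log2 level relative to the array's 75th percentile (vertical axis) of each class II probe above background on each array, with 1,2-dibromoethane (red, DBE) left of control (blue); bars are means, whiskers SD, symbols replicates, and all panels span the same log2 range. Only the RT1-DOb probes and A_44_P139882 of RT1-Db1 separate the groups.

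Cd74, the invariant chain, was represented by 1 probe, A_44_P549494. It gave 5.41, 5.67 and 4.95 in dibromoethane rats and 5.21, 5.23 and 5.56 in controls. The highest and the lowest array were both treated ones, and the groups overlapped (log2 difference 0.01, SE 0.20, limma adjusted p = 0.987). The 95% interval of the difference ran from 0.72-fold to 1.42-fold. The DM chains, which catalyse peptide exchange, lay close together as well. RT1-DMa probe A_42_P473314 gave 2.05, 2.24 and 1.69 in dibromoethane rats and 1.62, 1.74 and 1.98 in controls (log2 difference 0.21, SE 0.17). RT1-DMb gave 1.72, 1.93 and 1.43 in dibromoethane rats and 1.46, 1.52 and 1.78 in controls (log2 difference 0.11, SE 0.15). For neither gene did the groups separate, and the 95% interval of RT1-DMb was 0.83-fold to 1.40-fold.

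Ciita, which switches the other members on, gave -1.25, -1.48 and -1.76 by probe A_64_P010569 in dibromoethane rats and -1.52, -1.49 and -1.36 in controls. Its dimmer probe A_44_P435782 gave -2.40, -2.99 and -2.78 in dibromoethane rats and -2.94, -2.70 and -2.78 in controls. The log2 differences were -0.04 (SE 0.14) and 0.09 (SE 0.16), and in both the treated arrays enclosed the controls. The narrower of the 95% intervals was 0.77-fold to 1.24-fold.

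Most class II probes were high and low on the same arrays. Of the 17 probes, 12 had their highest value on the array of dibromoethane replicate 2. The lowest value was on control replicate 1 for 9 probes and on dibromoethane replicate 3 for 7. With each probe centred on its own mean, the median over the 17 was 0.08, 0.35 and -0.23 on the dibromoethane arrays 1 to 3 and -0.29, -0.02 and 0.10 on the control arrays 1 to 3. The exceptions were RT1-DOb, whose 2 probes were high on dibromoethane replicate 3 too (0.34 and 0.39), A_44_P139882 of RT1-Db1, and Ciita, whose probes were highest on dibromoethane replicate 1 (0.36 and 0.23). The median SD over the 6 arrays was 0.29 for the class II probes and 0.16 for all probes tested, and 80.4% of all probes had an SD below the former value. Slide 1 held dibromoethane replicate 2 beside control replicates 1 and 2, so that the median difference of the 17 probes was 0.54 within slide 1 and 0.07 within slide 2 (dibromoethane replicate 1 against control replicate 3). With slide as a fixed block the median was 0.28, and Cd74 had a difference of 0.20 (limma adjusted p = 0.632) and RT1-Da probe A_44_P991532 one of 0.18 (limma adjusted p = 0.755). Dibromoethane replicate 3 was alone on slide 3.

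**Figure D4:**
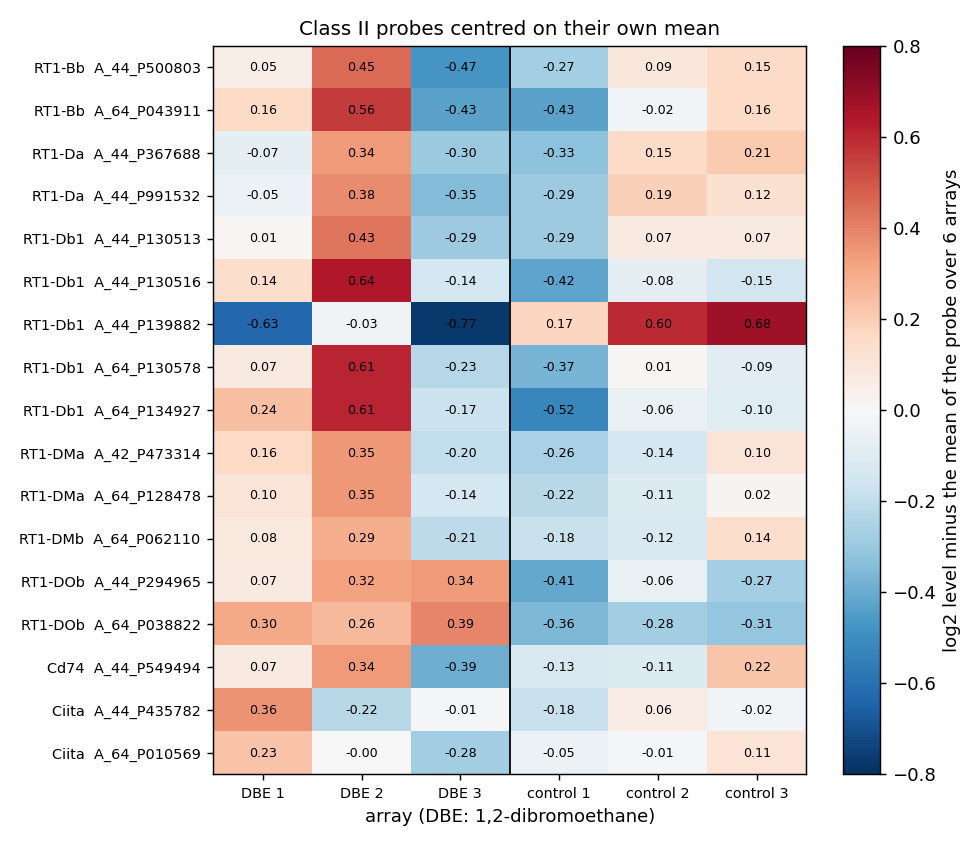
Log2 level of each class II probe minus its mean over the 6 arrays (colour and printed value), with probes down the page and the 1,2-dibromoethane arrays (DBE) left of the control arrays. Dibromoethane replicate 2 is the highest array for 12 of 17 probes, while dibromoethane replicate 3 and control replicate 1 are low for most.

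Measured by the root mean square difference between centred log2 profiles over the 6 arrays, RT1-DMb was the member most like Cd74 (0.085), and RT1-DMa and RT1-Bb followed (0.115 and 0.12 by their nearest probes). The median over all probes tested was 0.282, and 16 probes were nearer to Cd74 than RT1-DMb was. The 5 nearest genes outside the members were Zfp438 (0.056), Tmtc3 (0.065), Mylk (0.067), Tspan9 (0.078) and Ebi3 (0.081). With 6 arrays and 37274 probes, such likeness is a description and carries no test.

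Markers of the cells that carry class II gave the following values. Of 14 macrophage markers tested, 6 had a positive and 8 a negative difference, with a median of -0.09 and 0 past the adjusted threshold (3 lower and 0 higher at an unadjusted limma p under 0.05, against 6.59% of all probes lower). The 3 were C1qa, C1qb and C1qc (log2 differences -0.54, -0.48 and -0.41). In each, all treated arrays were below all control arrays, as in 11.8% of all probes. The 14 markers and those not tested were also summed. Their summed signal was 109.7 to 123.3 in dibromoethane rats and 115.5 to 126.7 in controls; it was lowest on dibromoethane replicate 3, as was Cd74, but highest on control replicate 3, while Cd74 was highest on dibromoethane replicate 2. Lyz2, between 6.03 and 6.31 on all arrays, makes up most of this sum. Cd163 and Vsig4 were well above background nowhere. The dendritic cell markers summed to 5.36 to 5.79 in dibromoethane rats and 5.86 to 6.21 in controls, so that the groups did not overlap, with 3 positive and 6 negative differences and Xcr1 and Irf4 above background nowhere. Itgae and Tcf4 were the brightest tested markers of that list and lead its sum. Clec10a, a lectin of macrophages and dendritic cells, gave -0.55, -0.47 and -0.75 in dibromoethane rats and -0.30, 0.15 and -0.22 in controls (log2 difference -0.47, SE 0.14, limma adjusted p = 0.365). The 8 T cell markers tested all had a negative difference, 0 of them at an unadjusted p under 0.05, and the list summed to 2.05 to 2.51 in dibromoethane rats and 1.99 to 2.72 in controls. The part of these cells in the class II values was not tested.

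Markers of other tissue components were summed in the same way. All 12 proximal tubule markers were measured, as befits renal cortex, and they summed to 1697 to 1760 in dibromoethane rats and 1834 to 2020 in controls. Of these, 1 had a positive and 11 a negative difference. Blood cell markers summed to 377 to 489 in dibromoethane rats and 545 to 612 in controls. The globins Hba-a1 and Hbb make up most of this sum, and of the 5 markers tested 2 had a positive and 3 a negative difference. Transcripts abundant in liver summed to 39.5 to 91.8 in dibromoethane rats and 25.6 to 41.4 in controls. The groups overlapped for the liver transcripts, whose highest sum was on dibromoethane replicate 1, and not for the proximal tubule and blood lists. They overlapped as well for other nephron segments (295 to 554 in dibromoethane rats and 500 to 544 in controls) and for endothelium (77.5 to 85.9 in dibromoethane rats and 82.6 to 91.8 in controls). None of these lists had a member past the adjusted threshold, and their part in the class II values was not tested.

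The rest of the pathway was read through 3 lists, with the brightest tested probe for each gene. In the list of class II transcription and induction 15 of 19 genes were tested, 0 passed, and 1 was higher and 2 were lower at an unadjusted limma p under 0.05, against 4.68% higher and 6.59% lower over all probes. Jak1, a kinase of the interferon receptors, gave 0.69, 0.79 and 0.76 in dibromoethane rats and 0.57, 0.48 and 0.44 in controls (log2 difference 0.25, SE 0.07, limma adjusted p = 0.361). Rfxank, a subunit of the factor that binds the X box, gave 2.78, 2.85 and 2.79 in dibromoethane rats and 2.98, 3.06 and 2.93 in controls (-0.19, SE 0.07, limma adjusted p = 0.414). In both the groups did not overlap, as in 19.4% of all probes. Ifng, the cytokine that induces Ciita, was well above background on no array. The median of the list was -0.04.

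In the list of class II loading and turnover 17 of 18 genes were tested, 0 passed, and 3 were lower and 0 higher at an unadjusted limma p under 0.05, with a median of -0.05. Over all probes 6.59% were lower and 4.68% higher at that level. Ctss, cathepsin S, the protease that trims the invariant chain, gave 2.07, 2.12 and 1.94 in dibromoethane rats and 2.30, 2.32 and 2.32 in controls (log2 difference -0.27, SE 0.08, limma adjusted p = 0.358). Ctsb, cathepsin B, gave 8.52, 8.61 and 8.71 in dibromoethane rats and 8.91, 8.90 and 8.78 in controls (-0.25, SE 0.08, limma adjusted p = 0.382). For both genes all treated arrays were below all control arrays, as in 11.8% of all probes. Of the 17 tested genes 6 had groups that did not overlap, some with dibromoethane higher, beside 19.4% of all probes in either direction. Of the costimulation list only 4 of 11 genes were tested and 0 passed. Icos, a T cell coreceptor, gave -2.77, -1.71 and -3.49 in dibromoethane rats and -3.96, -3.83 and -3.62 in controls (1.15, SE 0.43, limma adjusted p = 0.417). Icam1, an adhesion molecule, had a difference of 0.19 (SE 0.12). The costimulators Cd80 and Cd28 were well above background on no array.

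The 7 RT1 members lie in 1 stretch of chromosome 20, with RT1-Db2 among the genes between RT1-Da and RT1-Db1, and with Tap2, Psmb8, Tap1 and Psmb9 between RT1-DOb and RT1-DMb. Within this stretch and 15 named genes on either side of it there are 36 genes that are not members, of which 18 were tested. At an unadjusted limma p under 0.05 there were 2 higher and 0 lower among the 18, against 4.68% higher and 6.59% lower over all probes. The collagen gene Col11a2 was 1 of the 2 (log2 difference 0.35, SE 0.13, limma adjusted p = 0.417). The class I gene RT1-A3 was the other, and it entered the test only through its treated arrays. Its call is therefore not a result, which leaves Col11a2 alone to set against those shares. RT1-A3 stood at -3.84, -4.22 and -4.04 in dibromoethane rats and, not well above background, at -7.06, -6.98 and -7.59 in controls, so its fold was not measured. RT1-DOb itself stands between RT1-Bb and Tap2, a subunit of the peptide transporter of class I. Tap2 gave 0.34, 0.53 and 0.44 in dibromoethane rats and 0.56, 0.60 and 0.85 in controls (log2 difference -0.23, SE 0.11, limma adjusted p = 0.474). The immunoproteasome subunit Psmb8 had a difference of -0.19 (SE 0.10), and Psmb9 one of -0.01 (SE 0.11). RT1-Bb, on the other side of RT1-DOb, had a difference of 0.20 (SE 0.28) by its brightest probe, which does not settle its sign.

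**Figure D5:**
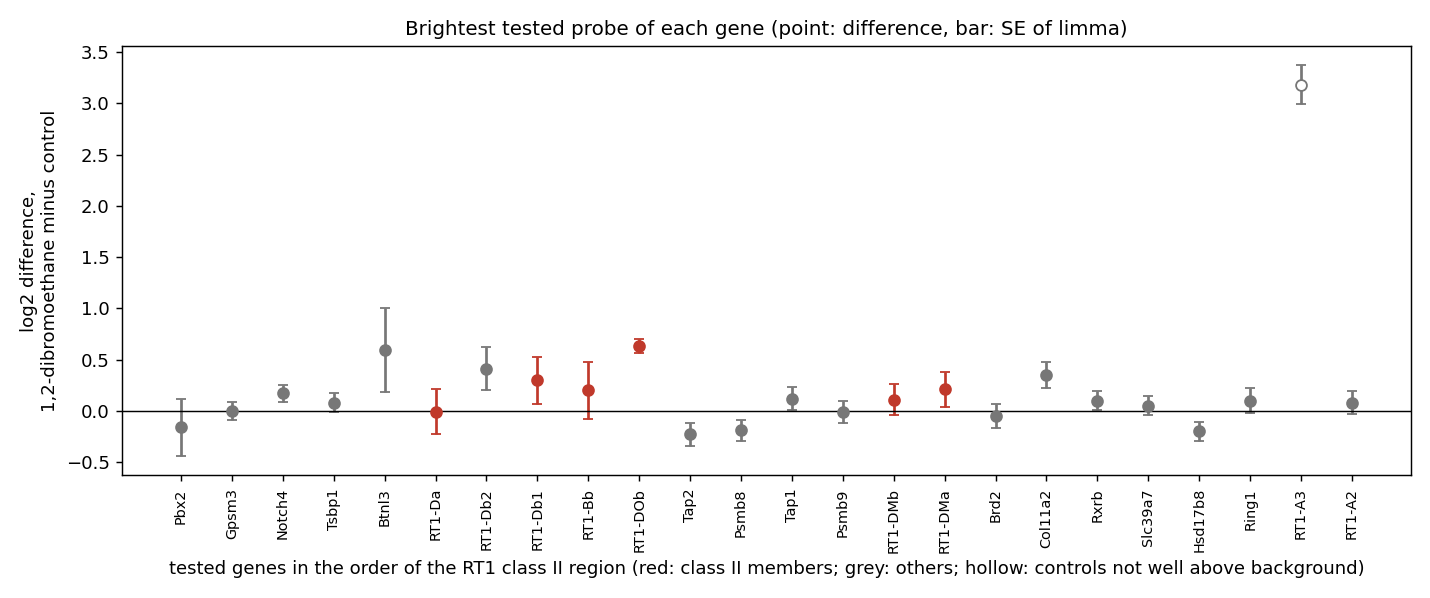
Log2 difference (vertical axis, 1,2-dibromoethane minus control) of the brightest tested probe of each gene, in gene order along the RT1 class II region; points are differences, bars the SE of limma, red marks class II members. RT1-DOb stands at 0.63 between RT1-Bb (0.20) and Tap2 (-0.23); the hollow point is RT1-A3, whose controls were not well above background, so that its plotted difference is not a measured fold.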

How the data were processed

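Total RNA of renal cortex was labelled with Cy3 and hybridised to 6 arrays, per the labels' protocols. The deposited scanner tables hold intensity values from Agilent Feature Extraction 10.7.1.1 on design 045522 (grid build rn4), per the file headers. That software had already subtracted background from the processed signal. The table of the whole series, as deposited, holds this intensity divided by 1 constant per array, near its 75th percentile.

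Control spots (1439) and 84 ERCC probes were left out. Accessions without versions were matched to RefSeq symbols of GRCr8 (28206 of 61453 probes). Outlier spots were set to missing. Each probe was tested by itself where all arrays of at least 1 group were well above background, in limma 3.58.1 under R 4.3.3 (lmFit, then eBayes, with 2.12 prior degrees of freedom added to 4 residual ones), two-sided, with Benjamini-Hochberg adjustment over 37274 probes at 0.05. The fit was tested on simulated data. Slides, scan days, scaling, filters, probe choice and each array were varied. The scanner tables used here hold no mean signal, so normexp (offset 50) used the median signal. Members, lists and the rule for named genes (all members; up to 4 called per list, else the 2 smallest p; neighbours by gene order; the 5 genes most like Cd74) were chosen with earlier results of these data known. Tap2, Psmb8, Psmb9, RT1-CE5, Cd80, Cd28 and other genes named as not above background were named after their values were seen. So were C1qa, C1qb, C1qc, Lyz2, Itgae, Tcf4, Hba-a1 and Hbb. The limit of 40 bases on the motif gap and the ratio test were also chosen then. The values of 1 marker gene are not reported here.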

Additional observations from a re-analysis of the deposited data

How the results depend on the processing

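In no alternative did a class II probe pass by itself: the count was 0 in each. In the fits by probe, 3 to 7 class II probes had an unadjusted limma p under 0.05. The count of 7 of 17 came without dibromoethane replicate 3, where 3161 of 37274 probes were under that level. With slide as a fixed block it was 5 of 17, beside 4394 of 37273 probes. The number of all probes called in limma, 10 in the reported fit, was 6 with normexp, 1 with no filter on dim probes, 20 with trend and robust, and 2 with a fixed block for scan day. It was 0 with slide as a fixed block, on only the slides with both groups (4394 at an unadjusted p under 0.05 in either) and with the replicate number as a block (4454), fits with 2 residual degrees of freedom; leaving out 1 array gave 1 to 12. The median class II difference was 0.28 under a fixed slide block, 0.54 within slide 1, and -0.01 to 0.27 without 1 array. The ratio of A_44_P139882 to the other RT1-Db1 probes kept its sign in every fit. It was -1.32 with slide as a fixed block and -1.28 with a scan-day block, and the number of class II ratios called was then 0; leaving out 1 array gave -1.32 to -1.23 and 0 called. With the replicate number as a block the ratio was -1.28 (limma adjusted p = 0.194) and 0 were called. Deviations of arrays with the same number correlated at -0.2, 0.235 and 0.134, so the numbers were not taken to pair the animals. Fewer arrays or residual degrees of freedom are part of how these fits were built; any other cause was not tested. Signal over background limits RT1-Ba, which had no probe above it. Alternatives with scan day, and all those of the ratio, were chosen after seeing the data.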
